A study of Mus musculus with 6 samples.

Results

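Cxcr4, Ccr1, Ccr2, Ccrl2, Cx3cr1, Ackr3 and Cmklr1 are 7 receptors of the chemokine and chemerin systems, chosen by name from a gene count table of 54532 mouse genes in which all 7 were listed. They were measured by RNA-seq in BV2 cells, an immortalised mouse microglial line, in 3 libraries of the genotype SMEK1 knockdown and 3 of the genotype WT, lettered A to C in each group. All cells were grown in Dulbecco's modified Eagle's medium with fetal bovine serum and penicillin-streptomycin, and the labels name no other treatment. SMEK1, the product of Ppp4r3a, is a regulatory subunit of protein phosphatase 4. The design text calls both LV1 and NL knockdown derivatives of BV2, and the sources used here do not say whether WT cells received a control construct. The labels do not say that the libraries came from separate cultures, and the p-values below measure only the spread between these libraries. Any other difference between the cultures cannot be told apart from the knockdown.

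Most chemokine receptors are G protein-coupled receptors that steer migrating cells through inhibitory G proteins, and after ligand binding they are phosphorylated by receptor kinases and taken into the cell with arrestins. CXCR4 is the signalling receptor for CXCL12, and ACKR3 is an atypical receptor that binds and removes the same ligand. CCR1 binds several CC chemokines, among them CCL3 and CCL5, while CCR2 is the receptor for CCL2 and draws monocytes into tissue. CX3CR1, the fractalkine receptor, is a defining receptor of microglia in the brain. CMKLR1 is the signalling receptor for chemerin, and CCRL2 binds chemerin without known signalling and can present it to CMKLR1.

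The data separated the members into 3 kinds. Cxcr4 was higher in knockdown cells and Ccr1 was lower, each by more than 5-fold. Ccrl2 and Cmklr1 were measured at low levels in both groups and did not pass the test. Cx3cr1, Ackr3 and Ccr2 had too few counts to be tested. The 2 members that changed are shown here with the 250 bases before their start sites, because these are the members with a called change. Both windows are from RefSeq on GRCm38.p6 and are written 5′ to 3′ on the strand of the gene, the minus strand in both cases, at chr1:128592300-128592549 for Cxcr4 and chr9:123968693-123968942 for Ccr1. Capitals mark matches to any of 5 motifs, searched on both strands with overlaps allowed: the palindromic NRF1 motif, whose 10 letters are the capitals 59 to 50 bases before the Cxcr4 start, ACGTG (the core of the hypoxia response element), GGGCGG (the GC box), TGACG (the core of the cAMP response element) and TATAAA (the TATA box).
Cxcr4: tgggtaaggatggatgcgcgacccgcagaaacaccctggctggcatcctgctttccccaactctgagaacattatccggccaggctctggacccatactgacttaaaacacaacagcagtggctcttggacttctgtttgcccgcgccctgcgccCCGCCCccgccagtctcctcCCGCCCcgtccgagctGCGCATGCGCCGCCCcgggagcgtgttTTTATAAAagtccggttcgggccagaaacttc
Ccr1: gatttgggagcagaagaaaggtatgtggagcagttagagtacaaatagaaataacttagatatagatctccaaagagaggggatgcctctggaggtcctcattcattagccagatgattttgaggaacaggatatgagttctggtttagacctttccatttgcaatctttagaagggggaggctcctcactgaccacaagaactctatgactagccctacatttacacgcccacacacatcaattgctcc
The Cxcr4 window held 1 match to the NRF1 motif, 59 to 50 bases before the start. It held 3 GC boxes on the reverse strand, at 95 to 90, 75 to 70 and 50 to 45 bases before the start, and the last of these shares 1 base with the NRF1 match. TATAAA matched on both strands in overlapping positions, 32 to 27 and 30 to 25 bases before the start. Of the 32851 windows of this length in the RefSeq table, 0.78% held the NRF1 motif, 32.74% a GC box and 12.37% TATAAA. The motif ACGTG was in 16.57% of all windows and TGACG in 17.77%, and neither was in the Cxcr4 window. The Ccr1 window held 0 matches to the 5 motifs, as did those of Ccr2 and Cx3cr1, while the window of Ackr3, a gene with 2 counts in all, held 1 GC box and 1 TATAAA. Each of the 3 windows of Ccrl2 held 1 ACGTG, with 1 GC box in the first and 1 TGACG in each of the others. The Cmklr1 window held 2 overlapping ACGTG matches on opposite strands. The NRF1 motif was in none of the other members' windows. A match describes the letters of a window only; factor binding was not measured.

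Library totals lay between 18036591 and 21131557 counts, so that a single count was worth 0.0444 to 0.0596 CPM (counts brought to a common library size by the trimmed mean of M-values). Ppp4r3a, the targeted gene, had 48, 122 and 94 counts in knockdown libraries A, B and C and 335, 227 and 260 in the WT libraries, and its level in the knockdown was 26.1% of WT (log2 fold change -1.94, SE 0.24, edgeR adjusted p = 8.2e-05). Of 14 markers of microglia and macrophages 12 could be tested. Of these, 3 were higher and 5 lower in the knockdown (66.7% called, against 40.1% of all genes). The summed level of the 14 was 4203 to 4713 CPM in knockdown cells and 4588 to 5170 CPM in WT. The defining microglial markers Sall1 and P2ry12 had 0 and 3 counts in all 6 libraries together. Marker sums of other brain and blood cells were at most 1.81 CPM for neurons, 0.313 for lymphocytes, 1.55 for granulocytes and 0.365 for fibroblasts and endothelium. Sums for astrocytes (158 to 221 CPM) and oligodendrocytes (55.0 to 69.8 CPM) came mainly from Aldoc and Cnp, while Aqp4, Aldh1l1, Mog and Olig2 had 0 counts. Of these other lists' markers, 5 could be tested: Mbp (log2 fold change 1.5, edgeR adjusted p = 8.68e-05) and Tubb3 (1.14, adjusted p = 0.0449) were higher, Aldoc was lower (-0.32, adjusted p = 0.0169), and 2 were not called. Tubb3 had 19, 18 and 39 counts in knockdown libraries A, B and C and 12, 7 and 9 in the WT libraries. It passed the filter on low counts through the knockdown libraries, which favoured a rise. The part of these marker levels in the receptor differences was not tested. In bulk RNA, a change in the number of cells that express a receptor and a change in RNA per cell cannot be told apart, which holds for every difference below.

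Cxcr4 (ENSMUSG00000045382, chr1:128588199-128592293 on GRCm38, 2 annotated transcripts of 2 exons each) had 1388, 1473 and 1487 counts in knockdown libraries A, B and C and 212, 200 and 228 counts in the WT libraries. These correspond to 72.5, 65.4 and 67.1 CPM in knockdown cells and 11.4, 11.9 and 13.4 CPM in WT. Every knockdown library stood far above every WT library, and the spread within each group was small beside the gap. The mean was 68.3 ± 3.70 CPM in knockdown cells against 12.3 ± 1.03 CPM in WT (SD, n = 3 each), a 5.57-fold difference with a log2 fold change of 2.48 (SE 0.10, edgeR quasi-likelihood test, adjusted p = 1.779e-08). Among the 12269 genes tested, Cxcr4 ranked 16 by p-value and 121 by size of rise. The deposited FPKM, which carry the authors' own scaling between libraries, were 37.5 ± 2.59 in knockdown cells and 6.76 ± 0.557 in WT.

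Ccr1 (ENSMUSG00000025804, chr9:123962124-123968692 on GRCm38, 1 transcript of 2 exons) moved in the other direction. It had 37, 36 and 39 counts in knockdown libraries A, B and C and 259, 224 and 212 in the WT libraries. In CPM these were 1.93, 1.6 and 1.76 in knockdown cells and 14, 13.4 and 12.5 in WT. All WT libraries were far above all knockdown libraries. The mean fell from 13.3 ± 0.754 CPM in WT to 1.76 ± 0.167 CPM in the knockdown (SD, n = 3 each), that is to 13.3% of WT, with a log2 fold change of -2.91 (SE 0.18, edgeR adjusted p = 3.81e-07). It ranked 54 by size among the falls. On the log2(FPKM + 1) scale the difference was -1.81, since the added 1 is large beside the knockdown values. Ccr1 shares sequence with Ccr1l1 and Ccr3, both at 0 counts in all 6 libraries, and the sources used here do not say how reads matching several genes were counted.

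In all, 4 of the 7 members passed the filter on low counts, and of these 1 was called higher and 1 lower at an adjusted p under 0.05. The background was high: 40.1% of the 12269 genes tested were called, 20.5% higher and 19.6% lower, and the ranges of the groups did not overlap for 50.9% of genes and for 2 of the 4 tested members. The count of called members was thus near the background. Called differences of at least 5-fold, a size chosen after the values were seen, were found in 2.03% of genes, with 1.17% higher and 0.856% lower. Scaling by library totals alone raised all log2 fold changes by a median of 0.159 and moved the higher share of calls from 51.1% to 71.3%, and under it Cxcr4 remained called higher at 2.64 and Ccr1 called lower.

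**Figure D1:**
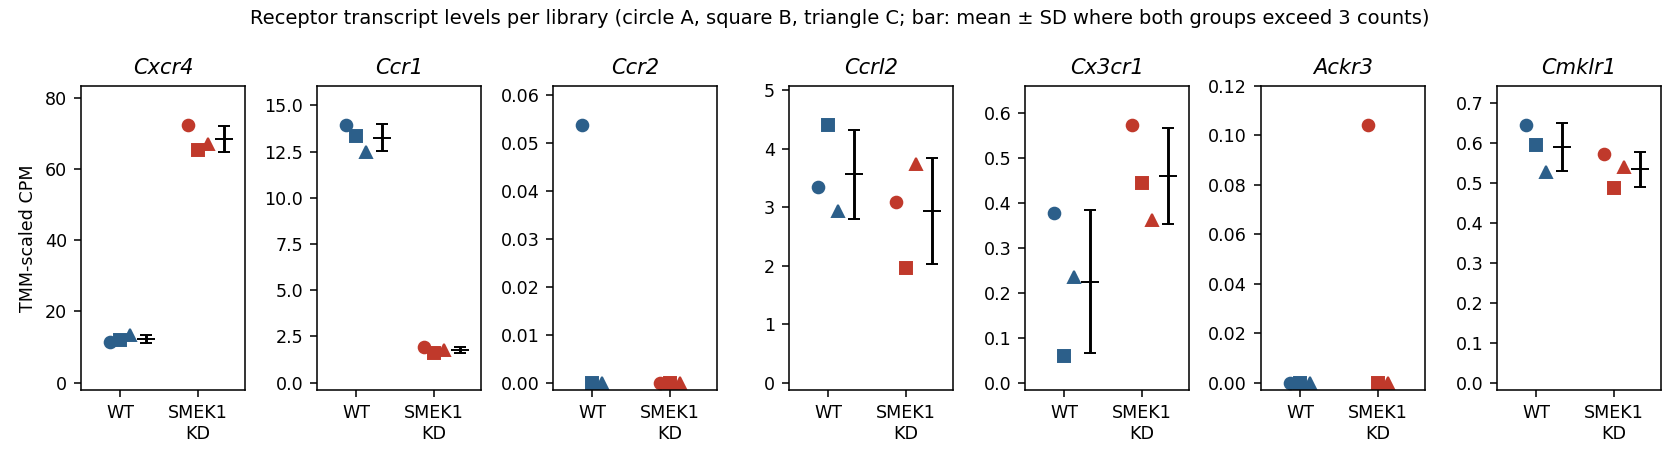
Level of the 7 receptors in every library, in TMM-scaled CPM with a linear axis of its own for each receptor, for WT and SMEK1 knockdown (KD) cells. Marker shapes give the library letter. Bars give the mean and SD of 3 libraries and are drawn only where both groups exceed 3 counts, so not for Ackr3 and Ccr2. The KD points of Cxcr4 lie at 65.4 to 72.5 CPM above WT points at 11.4 to 13.4 CPM, and the order is the opposite for Ccr1.

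**Figure D2:**
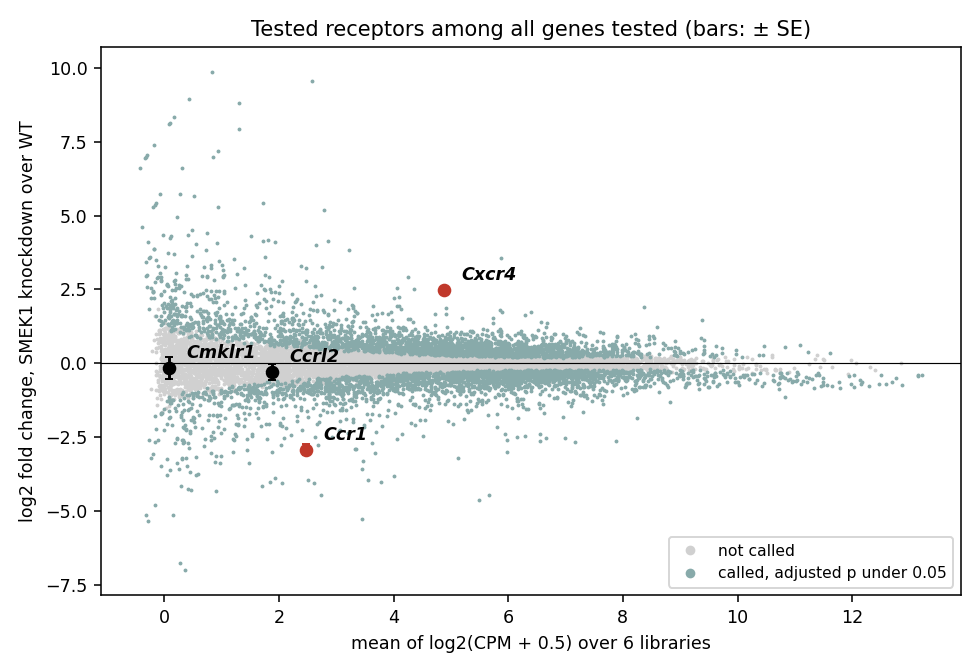
Log2 fold change of SMEK1 knockdown over WT against the mean of log2(CPM + 0.5) for the 12269 genes tested, with the 4 tested receptors marked and SE as bars. Cxcr4 at 2.48 and Ccr1 at -2.91 lie outside the bulk of genes of similar level, and Ccrl2 and Cmklr1 lie near 0.

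Ccrl2, the non-signalling chemerin receptor (chr9:111054486-111057519), had 59, 44 and 83 counts in knockdown libraries A, B and C and 62, 74 and 50 in the WT libraries. The ranges overlapped, and the means were 2.93 ± 0.906 CPM in knockdown cells and 3.57 ± 0.761 CPM in WT (log2 fold change -0.28, SE 0.28, edgeR adjusted p = 0.439). Cmklr1, its signalling partner (chr5:113612354-113650426), had 11, 11 and 12 counts in knockdown cells and 12, 10 and 9 in WT. Its groups also overlapped, at 0.535 ± 0.0435 CPM in knockdown cells and 0.591 ± 0.0591 CPM in WT, with a log2 fold change of -0.15 whose SE of 0.38 leaves room for moderate changes either way (edgeR adjusted p = 0.781). Its sign was not stable, at 0.0070 when libraries were scaled by their totals alone. A difference in these 2 receptors was therefore not detected with these libraries.

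Cx3cr1 (chr9:119901616-120069879) had 11, 10 and 8 counts in knockdown libraries A, B and C and 7, 1 and 4 in the WT libraries. It was near the limit of detection in these microglial cells, at 0.460 ± 0.108 CPM in knockdown cells and 0.224 ± 0.159 CPM in WT. The lowest knockdown library, at 0.361 CPM, lay below the highest WT library, at 0.377 CPM. Cx3cr1 did not pass the filter, and without the filter its log2 fold change was 1.02 (SE 0.71, edgeR adjusted p = 0.351). Its span in the annotation overlaps 9 other genes, 6 of them with counts and 4 of those on the opposite strand, and the sources used here do not say whether strand was used in counting. Some of these few reads may thus belong to an overlapping gene, which was not tested.

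Ackr3, the atypical CXCL12 receptor (chr1:90203980-90216751), had 2 counts in knockdown library A and 0 in the other 5 libraries. Ccr2 (chr9:124101950-124113557) had 1 count in WT library A and 0 elsewhere. Both stayed under a floor of 3 counts per group, which is 0.0470 CPM in knockdown cells and 0.0573 CPM in WT, so no fold is given; these floors cover counting error only.

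To compare the receptors with each other, CPM were divided by gene length in kilobases. In WT cells Cxcr4 led at 6.78 ± 0.569 CPM per kilobase, followed by Ccr1 at 4.68 ± 0.266, Ccrl2 at 1.37 ± 0.293, Cmklr1 at 0.173 ± 0.0173 and Cx3cr1 at 0.0497 ± 0.0353. In the knockdown the order was Cxcr4 at 37.8 ± 2.04, Ccrl2 at 1.13 ± 0.349, Ccr1 at 0.622 ± 0.0589, Cmklr1 at 0.157 ± 0.0128 and Cx3cr1 at 0.102 ± 0.0239. Neighbours in both orders had ranges that did not overlap, except for Ackr3 and Ccr2, which were last and could not be ordered. The change in order was that Ccr1 lay above Ccrl2 in WT and below it in the knockdown.

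These per-length levels were also read as shares of the sum over 26 receptors, the 7 members and 19 other chemokine and chemerin receptors. The sum was 40.5 ± 2.36 CPM per kilobase in knockdown cells and 14.3 ± 0.478 in WT. Cxcr4 made up 93.0% to 93.9% of the sum in the knockdown libraries and 44.5% to 51.8% in the WT libraries. Ccr1 made up 1.46% to 1.58% in knockdown cells and 30.7% to 35.6% in WT. The shares of Ccrl2, at 1.95% to 3.61% in knockdown cells and 7.90% to 11.5% in WT, did not overlap while its level did not pass the test; the sum by which it was divided was larger in the knockdown. Of the 19 other receptors, only Cxcr3, a receptor for interferon-induced chemokines, passed the filter. Cxcr3 had 8, 10 and 3 counts in knockdown libraries A, B and C and 26, 31 and 26 in the WT libraries. All WT libraries were higher (log2 fold change -2.25, SE 0.42, edgeR adjusted p = 0.00122); it passed the filter through the WT libraries, and a gene that passed in that way had to be lower in the knockdown. Ccr3, Ccr6, Ccr7, Ccr8, Ccr1l1, Ackr1, Ackr2 and Cmklr2 had 0 counts in all libraries.

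**Figure D3:**
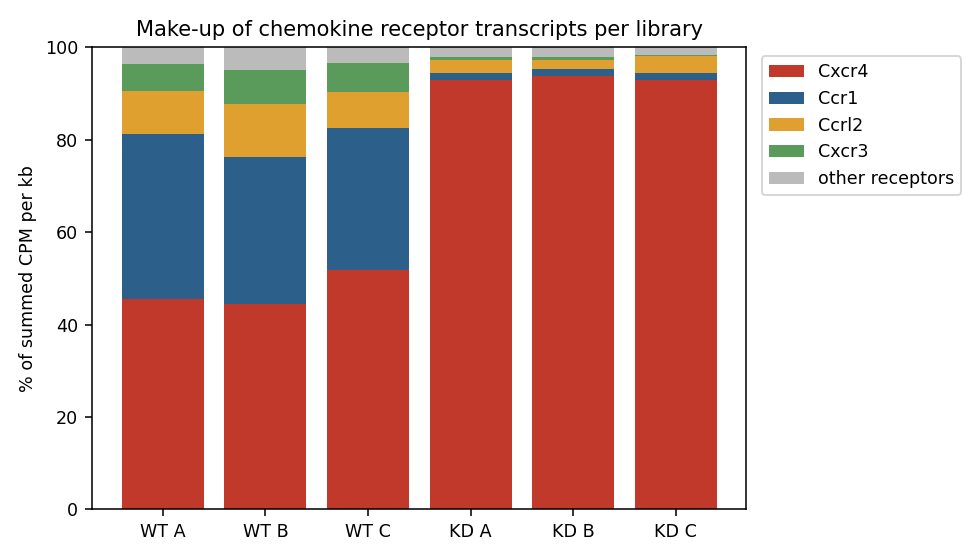
Share of each receptor in the summed CPM per kilobase over 26 chemokine and chemerin receptors, in percent, as 1 stacked bar for each WT and SMEK1 knockdown (KD) library. Cxcr4 fills 93.0% to 93.9% of the KD bars, while Cxcr4 and Ccr1 share most of each WT bar.

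The transcript of the shared ligand of CXCR4 and ACKR3 was under the floor of 3 counts in both groups. Cxcl12 had 1 count in knockdown library B and 0 elsewhere, and Cxcl11, which ACKR3 also binds, and Dpp4, a protease that cuts CXCL12, had 0 counts. Transcripts of other proteins described as partners of CXCR4 differed in both directions. Of 7 listed genes only 4 were tested, and 2 were higher and 1 lower (75% called, against 40.1% of all genes). The median log2 fold change was 0.28 against 0.01 over all genes. Cxcl14, a chemokine reported to interact with CXCR4, had 110.1, 105.8 and 107.5 CPM in knockdown libraries A, B and C and 49.3, 49.5 and 53.5 in the WT libraries, and was higher in each knockdown library (log2 fold change 1.09, SE 0.08, edgeR adjusted p = 9.90e-07). Cd74, the invariant chain of MHC class II and a receptor for MIF that can pair with CXCR4, had 75.0, 49.8 and 48.1 CPM in knockdown cells and 352.3, 365.3 and 362.7 in WT. Cd74 was thus lower in each knockdown library, with library A the highest of the 3 (log2 fold change -2.65, SE 0.15, edgeR adjusted p = 1.70e-07). Hmgb1, whose protein can form a complex with CXCL12, was 47.1 ± 3.21 CPM in knockdown cells and 27.6 ± 3.14 CPM in WT (log2 fold change 0.77, SE 0.11, edgeR adjusted p = 1.85e-04). Mif itself, at 1340 ± 120 CPM in knockdown cells and 1557 ± 72.7 CPM in WT, did not pass the test (log2 fold change -0.22, SE 0.09, edgeR adjusted p = 0.0789; DESeq2 adjusted p = 0.0357).

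Transcripts of the ligands of CCR1 and CCR2 were at very different levels. Of 10 such ligands 7 were tested, with 1 called higher and 2 lower (42.9% called, against 40.1% of all genes). The median log2 fold change was -0.15. Ccl5, a ligand of CCR1, had 8, 7 and 12 counts in knockdown libraries A, B and C and 68, 64 and 65 in the WT libraries, a log2 fold change of -3.14 (SE 0.30, edgeR adjusted p = 9.97e-06). Ccl5 passed the filter on low counts through the WT libraries alone, so that its direction was fixed by the filter. Ccl2, the main ligand of CCR2, had 27.9, 26.8 and 30.7 CPM in knockdown cells and 62.0, 74.4 and 70.0 CPM in WT. It was lower in all 3 knockdown libraries (log2 fold change -1.27, SE 0.10, edgeR adjusted p = 2.29e-06). Ccl4 was higher, at 75.5 ± 8.21 CPM in knockdown cells and 52.6 ± 1.00 CPM in WT (log2 fold change 0.52, SE 0.09, edgeR adjusted p = 9.27e-04). The most abundant of these ligands, Ccl3, stood at 294 ± 24.1 CPM in knockdown cells and 291 ± 22.4 CPM in WT and its ranges overlapped (log2 fold change 0.01, SE 0.09, edgeR adjusted p = 0.909). With library totals alone as the scaling Ccl3 was called higher, at 0.17 (adjusted p = 0.0428).

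The 3 other tested ligands, Ccl6, Ccl7 and Ccl9, had log2 fold changes of -0.15, 0.50 and -0.32 and were not called (edgeR adjusted p = 0.524, 0.112 and 0.205). The call on 2 of them changed with the settings: Ccl7 was called higher with library totals (adjusted p = 0.0354) and by limma on log2(FPKM + 1) (adjusted p = 0.0479), and Ccl9 lower without WT library A (adjusted p = 0.0358). Ccl12 had 3 counts in knockdown cells and 6 in WT, and Ccl8 and Ccl11 had 0. The gene for fractalkine, Cx3cl1, had 5, 15 and 9 counts in knockdown libraries A, B and C and 2, 1 and 2 in the WT libraries. It was too low for the filter. Without the filter it was called higher on 5 WT counts in all (log2 fold change 2.19, SE 0.87, edgeR adjusted p = 0.0468). That fit gave far smaller adjusted p-values for some genes, as for Cxcr4 (edgeR 4.43e-94, against 1.78e-08 in the main test), so this borderline call is weak. The fractalkine-cutting proteases Adam10, Adam17 and Ctss were tested and 0 of 3 were called, with log2 fold changes of -0.16, -0.16 and 0.09; with library totals 1 of this list was called higher.

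Chemerin transcripts were not detected at this depth. Rarres2, the chemerin gene, and the chemerin-processing proteases Plg, F12 and Cma1 had 0 counts in all libraries. Ctsl, a lysosomal protease that can process chemerin, was the tested gene of this list. It was 1536 ± 38.9 CPM in knockdown cells and 1265 ± 143 CPM in WT, with no overlap (log2 fold change 0.28, SE 0.10, edgeR adjusted p = 0.0353). This call was lost when knockdown library A (adjusted p = 0.0506) or C (0.0926) was left out, and likewise for WT library A (0.107) or C (0.0958).

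Genes that end or shape receptor signals were called about as often as genes in general. Of 21 listed genes of receptor desensitisation and trafficking with a single identifier, 17 were tested, 4 were higher and 4 lower (47.1% called, against 40.1% of all genes), with a median log2 fold change of -0.02. Rgs12, a GTPase-activating protein for inhibitory G protein subunits, had 111, 109 and 127 counts in knockdown libraries A, B and C and 5, 1 and 1 in the WT libraries, a log2 fold change of 5.29 (SE 0.40, edgeR adjusted p = 1.84e-06). Rgs12 passed the filter through the knockdown libraries alone, which fixed its direction, and its log2 fold change was 6.37 without WT library A, which held 5 of its 7 WT counts. Rgs2, a regulator that acts mostly on Gq, rose from 61.7 ± 4.34 CPM in WT to 134 ± 8.84 CPM in the knockdown (log2 fold change 1.12, SE 0.08, edgeR adjusted p = 1.77e-06). Grk6, a kinase that phosphorylates chemokine receptors, fell from 142.9 ± 5.48 to 104.3 ± 6.79 CPM (log2 fold change -0.45, SE 0.08, edgeR adjusted p = 7.61e-04). Rgs16 and Rgs18 had 0 counts.

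Among genes that carry the signal from the receptor to the moving cell, 21 of 24 were tested, 2 were higher and 11 lower (61.9% called, against 40.1% of all genes, of which 20.5% were higher and 19.6% lower), and the median log2 fold change was -0.25. This split depended on scaling and on single libraries: it was 5 higher and 5 lower with library totals, 5 lower without knockdown library C, and 0 higher and 5 lower without WT library C. Dock2, a Rac activator needed for leukocyte migration, had 25.6, 42.1 and 31.4 CPM in knockdown libraries A, B and C and 89.8, 62.6 and 79.0 CPM in WT. All WT libraries were higher, with a wide spread within each group (log2 fold change -1.22, SE 0.17, edgeR adjusted p = 1.73e-04). Plcb2, a phospholipase activated by chemokine receptors, fell from 105.6 ± 0.954 CPM in WT to 63.8 ± 3.66 CPM in the knockdown (log2 fold change -0.73, SE 0.08, edgeR adjusted p = 2.24e-05). Ptk2b, the kinase PYK2, was lower by a smaller step (log2 fold change -0.39, SE 0.08, edgeR adjusted p = 0.00147). Gnai1 had 0 counts.

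**Figure D4:**
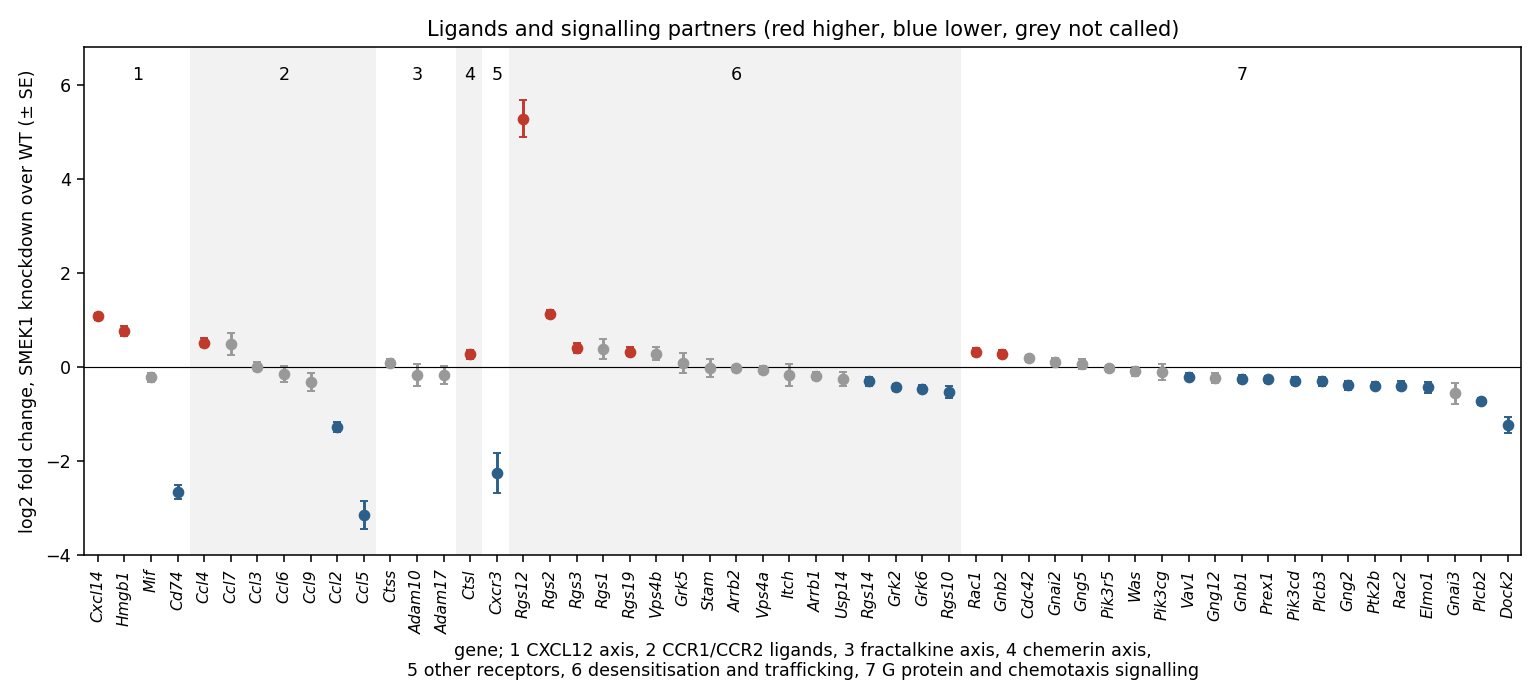
Log2 fold change of SMEK1 knockdown over WT with its SE for the tested ligands, binding partners, other receptors and signalling genes, grouped by list and sorted within each list. Red points were called higher, blue points lower and grey points were not called; Rgs12 lies highest at 5.29, and Ccl5, Cd74 and Cxcr3 lie lowest.

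Of 18 transcription factors and coactivators proposed to act on Cxcr4, all 18 were tested, 4 were higher and 4 lower (44.4% called, against 40.1% of all genes), and the median log2 fold change was -0.03. Epas1, which encodes the hypoxia-inducible factor HIF-2α, rose from 47.5 ± 0.349 CPM in WT to 76.0 ± 3.99 CPM in the knockdown (log2 fold change 0.68, SE 0.08, edgeR adjusted p = 5.13e-05). Nfkb1, an NF-κB subunit, fell from 83.9 ± 6.59 to 51.3 ± 2.83 CPM (log2 fold change -0.71, SE 0.09, edgeR adjusted p = 7.42e-05), and Klf2 fell from 22.7 ± 3.11 to 13.7 ± 1.73 CPM (log2 fold change -0.73, SE 0.15, edgeR adjusted p = 0.00200). Nrf1 and Sp1, named because their motifs are in the Cxcr4 window, had overlapping ranges and were not called, with log2 fold changes of 0.22 (SE 0.10, edgeR adjusted p = 0.112) and 0.00 (SE 0.18, adjusted p = 0.997).

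The genes whose profile over the 6 libraries was most like that of each changed receptor were found by the Euclidean distance between log2(CPM + 0.5) profiles centred on their own means, among 8713 other protein-coding genes that averaged 5 CPM or more. For Cxcr4 the 5 nearest were Ccdc136 (distance 0.216), Mtss1l (0.253), Tspan13 (0.336), Il34 (0.402) and Asb11 (0.446). Ccdc136, the nearest, had 12.9, 11.6 and 13.3 CPM in knockdown libraries A, B and C and 1.89, 1.73 and 1.88 in the WT libraries. Mtss1l and Il34 lie next to each other on chromosome 8, and Il34 encodes interleukin-34, a ligand of the CSF1 receptor of microglia. For Ccr1 the nearest were Oasl2 (0.134), S100a6 (0.196), H2-T23 (0.242), Epsti1 (0.256) and Lgals3bp (0.280). Oasl2 and Epsti1 are interferon-induced genes, and H2-T23 is a nonclassical MHC class I gene. Oasl2 had 4.65, 4.31 and 4.78 CPM in knockdown cells and 30.5, 29.6 and 29.2 in WT, and was 6.49-fold lower in the knockdown where Ccr1 was 7.52-fold lower. With 2 groups, likeness over 6 libraries mostly reflects the fold between the groups. The 0.5 added to CPM shrinks this fold for genes at few CPM, while the folds given here are those of the edgeR fit.

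The tested genes within 500 kb of each member were described next, as nearness on the chromosome is a property that the choice of members did not use. Ccr1 had 6 such neighbours, of which 0 were called in either direction, against 40.1% of all genes. The nearest were Fyco1 at 110 kb on 1 side (log2 fold change 0.37, edgeR adjusted p = 0.277) and 2010315B03Rik at 323 kb on the other (-0.61, adjusted p = 0.211). Cxcr4 had 4 such neighbours, all on the side of lower coordinates. Of these 2 were higher, against 20.5% of all genes, and the median log2 fold change was 0.31. The nearest, Dars, was 60.5 ± 15.5 CPM in knockdown cells and 35.6 ± 3.58 CPM in WT (log2 fold change 0.77, SE 0.16, edgeR adjusted p = 0.00264). The differences of Cxcr4 and Ccr1 were larger in size than those of their nearest tested neighbours. Both receptors were singled out for their large called changes and the neighbours were not, so nothing is concluded from this comparison.

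**Figure D5:**
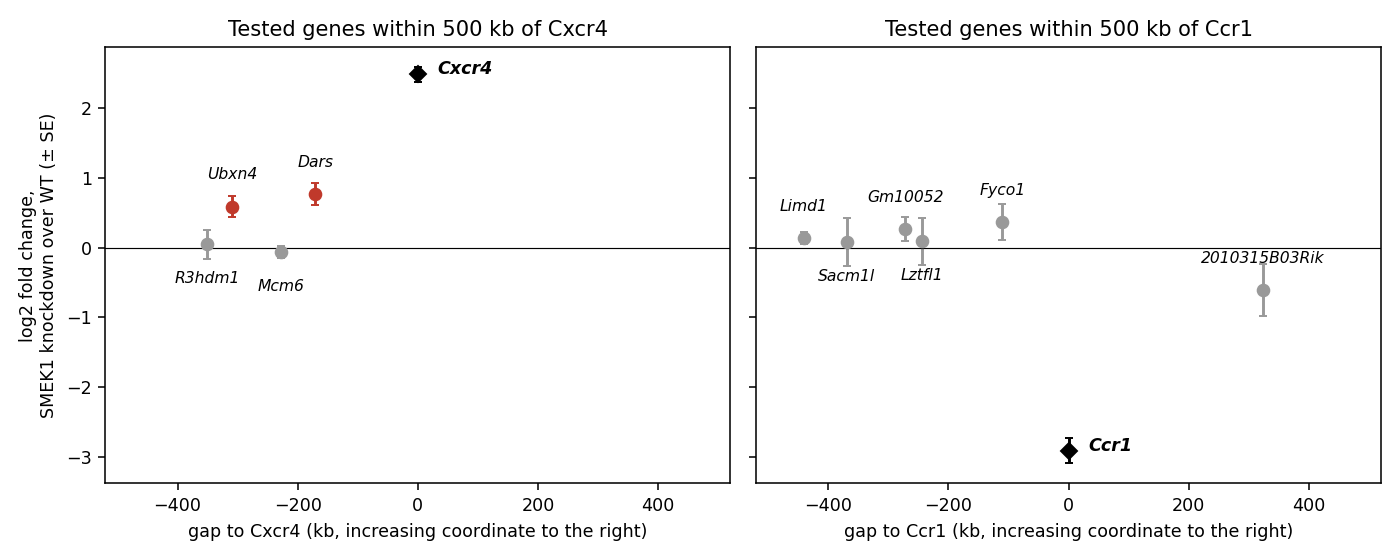
Log2 fold change of SMEK1 knockdown over WT with its SE for the tested genes within 500 kb of Cxcr4 and of Ccr1, against their gap to the receptor in kilobases. Red points were called higher and grey points were not called. Both receptors, in black, lie farther from 0 than each of their neighbours, and both are shown because their changes were called.

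The surroundings of the 5 other members held called genes in varying numbers. Around Ccrl2 6 of 10 tested neighbours were higher and 0 lower, against 20.5% and 19.6% of all genes. Their median log2 fold change was 0.63. Of the 6, Pth1r and Tmie passed the filter through the knockdown libraries alone, which fixed their direction. Prss46 had 142, 128 and 161 counts in knockdown libraries A, B and C and 22, 8 and 33 in the WT libraries. The WT libraries alone would not have passed it, so the filter favoured its rise as well. The nearest neighbours were Als2cl (0.79, edgeR adjusted p = 5.59e-05) and Lrrfip2 (0.70, adjusted p = 3.56e-04). Around Cmklr1 8 of 12 were higher and 1 lower, with a median of 0.40, against 20.5% of all genes higher. Its nearest neighbours were Ficd at 85.4 kb (1.43, SE 0.23, edgeR adjusted p = 4.21e-04) and 4930405N21Rik at 291 kb (0.10, adjusted p = 0.859). Around Cx3cr1 1 of 11 was higher and 2 lower, against 20.5% and 19.6% of all genes. Among these, Wdr48 (-0.01), Gorasp1 (0.18), Ttc21a (0.36) and Csrnp1 (-0.78, edgeR adjusted p = 0.00305) overlap it, and the nearest beside it were Exog (0.09) and Slc25a38 (0.55, adjusted p = 9.05e-04). Of the 6 around Ccr2 the 1 lower gene was Ccr1 itself, its nearest neighbour on the side of lower coordinates, and 2010315B03Rik was the nearest on the other side. For Ackr3 the lone tested neighbour, Cops8, was higher (0.86, edgeR adjusted p = 2.94e-05). Neighbouring genes are not independent of each other, and no test was made of these counts.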

How the data were processed

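RNA-seq of 3 SMEK1 knockdown and 3 WT libraries of BV2 cells was used. The authors deposited whole-number counts per gene for 54532 genes and FPKM values; the FPKM carry their own scaling between libraries. Per the submitters' processing notes the build was GRCm38 (mm10). The sources used here do not give the aligner, the counting program, whether it used strand, or the annotation. A further deposited table repeats the FPKM and was not used.

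The test of counts was edgeR's quasi-likelihood test (edgeR 4.0.16, R 4.3.3; glmQLFit, glmQLFTest) between the groups, with no covariates, on 12269 genes kept by filterByExpr and with TMM scaling. Adjusted p-values are Benjamini-Hochberg over all genes tested, with calls under 0.05. Log2 fold changes are knockdown over WT. Their SE was taken as the absolute value over the root of F, which is approximate at few counts. The biological coefficient of variation was 0.121. Within-group Pearson correlations of log2 CPM were 0.988 to 0.994 and no libraries were duplicates. Scripts were tested on simulated data. Transcript structures were read from the GENCODE M21 annotation of GRCm38, and gene positions from the deposited table. Library depth gives 1 count a value of 0.0444 to 0.0596 CPM, and reads carry no stated molecular identifiers.

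The members, gene lists and tests were chosen with earlier results of these data known. Text names all members, up to 3 called genes of each list with the smallest adjusted p, every ligand, genes at 0, the 5 genes most like each called member, and the nearest tested neighbours; Cxcr3, Adam10, Adam17, Nrf1, Sp1 and other genes outside this rule were named after their values were seen. Hgs was left out because its symbol has more than 1 identifier. Alternatives were other scalings and filters, protein-coding genes only, DESeq2 1.42.0, limma 3.58.1 (voom, and log2 of FPKM plus 1 or 0.1), stricter calls, a replicate block, and leaving out each library.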

Additional observations from a re-analysis of the deposited data

How the results depend on the processing

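Cxcr4 stayed higher and Ccr1 lower, both called, in 19 of 19 alternatives, at log2 fold changes of 2.31 to 2.64 and -2.97 to -1.81, and Ccrl2 lay between -0.50 and -0.03 without being called. Leaving out 1 library gave 2.43 to 2.55 for Cxcr4 and -2.97 to -2.82 for Ccr1. Cmklr1 turned to 0.0070 with library totals (adjusted p = 0.991). Leaving out 1 library gave -0.029 to 0.10 for Ccl3 and -0.24 to 0.31 for 4930405N21Rik, and library totals gave 0.0076 for Ccl6; none of these was called. Of 12269 genes, 4918 were called, against 989 when tested against a fold of 1.5 and 3181 at an adjusted p under 0.01. Calls were 2515 higher and 2403 lower, against 3893 and 1568 with library totals, 514 and 475 with the fold of 1.5, and 1582 and 1599 at 0.01. Leaving out 1 library gave 1869 to 2586 higher and 1782 to 2365 lower. In the main test 20.5% of all genes tested were higher and 19.6% lower. Over the 8 pathway lists 14 genes were higher and 23 lower. These counts were 23 and 15 with library totals, 3 and 5 with the fold of 1.5, 9 and 15 at 0.01, and 9 to 15 and 15 to 24 with 1 library left out; the lowest came without WT library C and without knockdown library C. The letters A to C are not said to pair libraries, and deviations of same-letter libraries from their group means correlated at -0.435, -0.411 and -0.00376, so that no library correlated best with its own letter. With the letter as a replicate block 3326 genes were called, the pathway lists had 9 higher and 15 lower, and Cxcr4 (2.48, adjusted p = 1.29e-05) and Ccr1 (-2.91, adjusted p = 9.72e-05) were called. For members under the floor of 3 counts a group, depth sets the limit. Apart from the settings' own construction, the cause of these shifts was not tested.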
